A study of Arabidopsis thaliana with 12 samples.

Results

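In wild-type Arabidopsis thaliana seedlings, 116 genes were at a higher transcript level after 1 h of green light than in the dark and were listed in the wild-type tables alone. They were chosen by 2 criteria: a row in the wild-type tables and none in the BES1-RNAi tables, and a change of at least 1 in log2(mean green FPKM + 1) minus log2(mean dark FPKM + 1). FPKM is fragments per kilobase of transcript, scaled to the mapped total of each library. They are 116 of the 654 genes listed for wild type only, of the 1287 listed for wild type and of the 1731 listed in any table. The light values of wild type therefore chose the genes, so their changes are given as a description with no test. A gene without a row in the BES1-RNAi tables has no value there in the data used here, and nothing is shown about its response in that line.

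The groups used were wild-type seedlings under 10 µmol m-2 s-1 of green light for 1 h and wild-type seedlings kept in the dark, all 3 days old and dark-grown, with 3 RNA-seq libraries each. The other 6 libraries came from a BES1-RNAi line, in which a transgene is directed against the brassinosteroid transcription factor BES1, under the same light treatments. The labels name the tissue only as seedling and do not say whether libraries came from separately grown plants. BES1 itself was not analysed here.

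A seedling that germinates in the dark elongates its hypocotyl, keeps its cotyledons closed and makes no chlorophyll. Light perceived by phytochromes and cryptochromes switches it to photomorphogenesis, in which the plastids turn into chloroplasts and nuclear genes for the light-harvesting antenna are transcribed. Brassinosteroid signalling, acting through BES1, favours the growth habit of the dark.

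By role the genes fell into 8 of the light-harvesting antenna, 4 of light signalling and the clock, 14 of cold, dehydration and abscisic acid, 7 other transcription factors and 5 of heat shock. A further 4 encode transporters of nitrogen compounds and boron, 10 act in growth, peptide signals and the cell wall, 10 are organelle-encoded, and 11 are nuclear non-coding RNAs. The remaining 43 comprise 3 loci that copy ribosomal RNA or mitochondrial sequence and 40 genes of metabolism or unknown role. Changes ran from 1.01 to 3.91 on the log2 scale with a median of 1.28, against a median of 0.83 over all 1287 listed genes. Every green library stood above every dark library in 107 of the 116 (92.2%). Over all listed genes this held for 62.2%, and over the 837 listed genes with a change above 0 for 95.6%. By limma with Benjamini-Hochberg adjustment over the listed genes, 110 of the 116 passed an adjusted p of 0.05 in the rising direction, as did 62.9% of all listed genes. Both counts follow from how the genes were chosen. The 62.9% is 810 of the 1287 genes, falling ones included, and 837 of the 1287 had a change above 0. Most rising genes therefore passed, and a list of which all genes passed is mainly a list without falling genes.

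**Figure D1:**
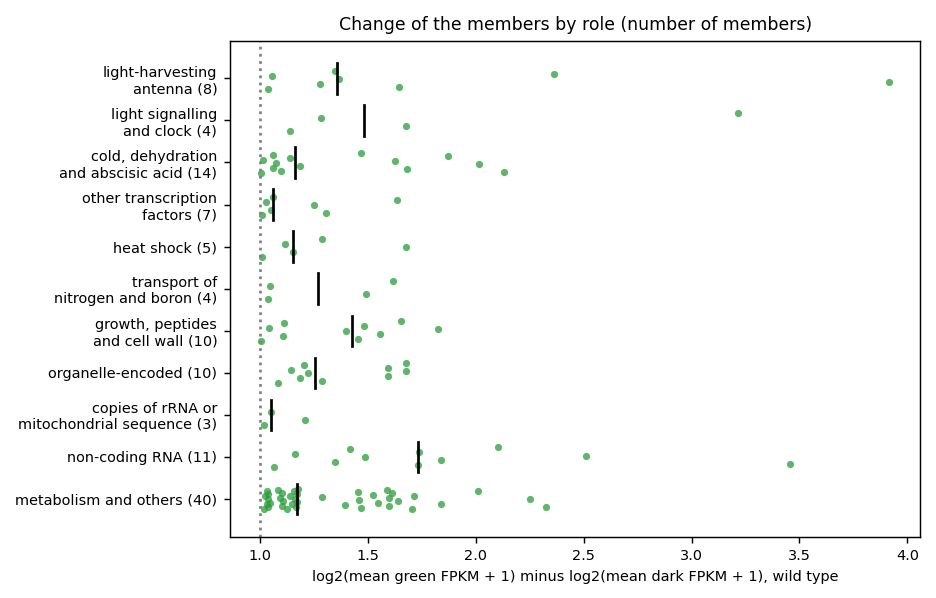
Each point is 1 of the 116 genes, placed by its change, log2(mean green FPKM + 1) minus log2(mean dark FPKM + 1) in wild type, with the role groups down the page, black bars at group medians and a dotted line at the threshold of 1. Most genes lie between 1 and 2, and CAB2 at 3.91, AT2G08770 at 3.45 and CRY3 at 3.22 lie farthest to the right.

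The libraries themselves differed in ways that touch every value. Ribosomal RNA, by locus AT2G01020, stood at 19425.7, 33636.1 and 52909.9 FPKM in the green libraries and at 8038.23, 4138.39 and 8010.35 FPKM in the dark libraries. The 17 listed organelle genes summed to 3445, 11811 and 4441 FPKM in green replicates 1 to 3, against 1868, 1945 and 2714 FPKM in dark replicates 1 to 3. Most of the sum in green replicate 2 came from the ATCG loci. There ATCG00920 and ATCG01210 each had 2581.68 FPKM, and ATCG00950 and ATCG01180 each had 2908.71 FPKM, so each of these values enters the sum 2 times. Green replicate 2 thus stood apart in organelle transcripts, and all green libraries lay above all dark libraries in ribosomal RNA. The number of reads is unknown, and the part of these differences in the changes below was not tested. When each library was scaled so that the median listed gene was level, the median change of all listed genes moved to 0.08 and that of the 116 genes to 0.54. After that scaling 22 of the 116 kept a change of at least 1, against 164 of all 1287 listed genes. The listed genes are a selection in which 837 of 1287 have a change above 0, so this scaling moves values down by construction.

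The light-harvesting antenna binds chlorophyll and passes light energy to the photosystems. Its 8 genes here are 5 of the LHCB1 and LHCB2 types and LHCB3, which serve photosystem II, and LHCA1 and LHCA4, which serve photosystem I. CAB2 (AT1G29920, an LHCB1 gene) had 175.99, 322.82 and 192.82 FPKM in green light, against 11.86, 14.39 and 16.80 FPKM in the dark. The means were 231 ± 80.4 and 14.4 ± 2.47 FPKM (SD, n = 3 each), a change of 3.91 and the largest among the 116. LHCB2.1 had 292.54, 435.20 and 294.01 FPKM in green light and 61.20, 63.37 and 71.37 FPKM in the dark, a change of 2.36. In both genes every green library was far above every dark one, and green replicate 2 was the highest.

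The other antenna genes changed by 1.04 to 1.64 on the log2 scale. LHCA1 averaged 369.5 ± 75.8 FPKM in green light and 118 ± 11.9 FPKM in the dark (SD, n = 3 each). LHCB3 averaged 564 ± 111 FPKM in green light and 232 ± 6.05 FPKM in the dark. LHCA4 had 516.71, 690.62 and 544.46 FPKM in green light and 301.87, 281.77 and 257.13 FPKM in the dark. LHCB2.3, with a change of 1.04, had 141.35, 245.41 and 145.18 FPKM in green light and 87.74, 89.71 and 80.50 FPKM in the dark. These genes were already at high levels in the dark, and their groups did not overlap.

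LHB1B2 (AT2G34420), a further LHCB1 gene, behaved differently between green libraries. It had 1032.58, 941.38 and 314.48 FPKM in green light, against 285.74, 337.28 and 275.23 FPKM in the dark. Green replicate 3 lay within the dark range, so the groups overlapped and the mean of 763 ± 391 FPKM in green light rests on replicates 1 and 2. It was the only antenna gene of the 8 in which green replicate 2 was not the highest green library. An annotated non-coding RNA, AT2G08665, covers its whole length on the opposite strand and has no row in the wild-type tables.

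CAB3 and CAB2 lie side by side on the minus strand of chromosome 1 (chr1:10472280-10473502 and chr1:10474656-10475969, TAIR10.1), 1153 bases apart. Both match CAB1 at 96.1% identity over 68.4% of CAB3 and 62.6% of CAB2, so reads could be shared among them, and the sources used here do not say how such reads were handled. CAB3 averaged 76.0 ± 28.4 FPKM in green light and 28.9 ± 3.26 FPKM in the dark, a smaller change (1.37) than that of CAB2 at a higher dark level.

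Of 57 nuclear photosynthesis genes sought, 12 had values in wild type, and 8 of these are the antenna genes above. All 12 passed as rising (limma, adjusted p under 0.05), against 62.9% of all listed genes, falling ones included. The other four comprised LHCB2.2 and RBCS1B, listed for both genotypes, and PSAK and LHCB4.3, whose changes were below 1. In RBCS1B, a small subunit of Rubisco, green replicate 2 was again the highest, with 300.14, 530.93 and 299.64 FPKM in green light and 180.22, 173.22 and 152.93 FPKM in the dark. Photoprotection, carotenoid, chlorophyll and flavonoid lists had 8, 3, 4 and 12 genes in the wild-type tables and none among the 116. After scaling on the median gene, CAB2 and LHCB2.1 kept a change of at least 1 (3.07 and 1.49) and the other 6 antenna genes lay between 0.17 and 0.77.

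**Figure D2:**
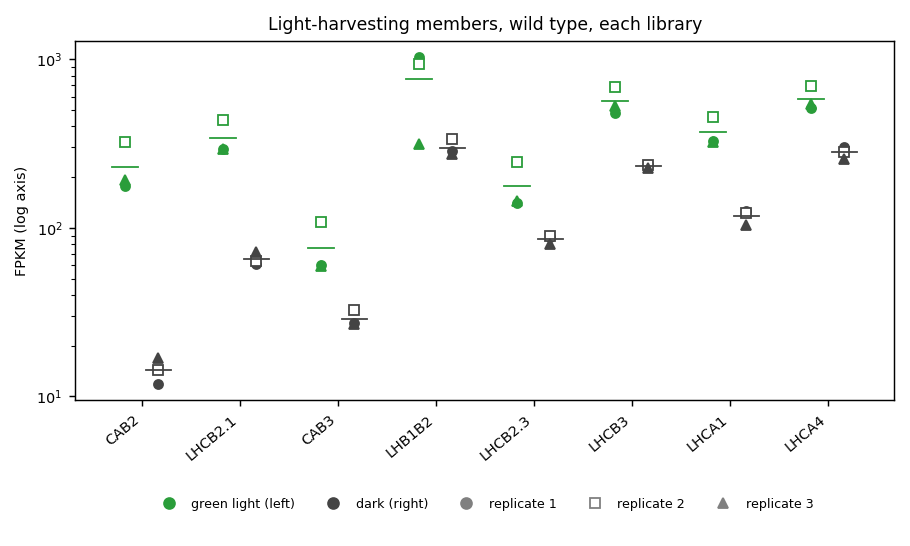
FPKM on a log axis of the 8 antenna genes in each wild-type library, green light left of dark for each gene, with a marker shape per replicate number and short lines at group means. Green replicate 2 (open squares) is the highest green value for every gene except LHB1B2, where green replicate 3 sits among the dark libraries.

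Stretches upstream of 3 light-related genes are shown because each holds a G-box, CACGTG, the palindrome bound by bZIP and bHLH factors of light signalling. LHCB2.3 and LHCA4 carry it at the same distance, starting 88 bases before the gene start, and CRY3 7 bases before it. The other 6 of the 8 antenna genes had no match in the window searched. Sequences are from RefSeq, build TAIR10.1, on the strand of the gene, read 5′ to 3′ and ending at the base before the gene start, with the G-box in capitals. They cover chr3:10255756-10255905 (plus strand) for LHCB2.3, chr3:17495034-17495183 (minus strand) for LHCA4 and chr5:8538212-8538311 (minus strand) for CRY3.
LHCB2.3: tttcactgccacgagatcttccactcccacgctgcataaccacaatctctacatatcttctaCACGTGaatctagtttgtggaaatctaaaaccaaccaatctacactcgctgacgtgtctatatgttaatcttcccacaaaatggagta
LHCA4: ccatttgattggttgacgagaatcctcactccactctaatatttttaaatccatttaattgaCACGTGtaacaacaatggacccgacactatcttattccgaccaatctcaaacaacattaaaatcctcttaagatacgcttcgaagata
CRY3: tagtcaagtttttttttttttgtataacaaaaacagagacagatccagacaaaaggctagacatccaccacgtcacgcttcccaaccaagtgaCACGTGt

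CRY3 (AT5G24850), a cryptochrome of the DASH type found in chloroplasts and mitochondria, had 39.51, 41.07 and 47.09 FPKM in green light, against 3.86, 3.00 and 4.2 FPKM in the dark. Its change of 3.22 came with close agreement among green libraries (SD of 0.13 on the log2 scale) and stood at 2.42 after scaling on the median gene. It was the only gene of the 116 on a list of photoreceptors and light signalling, of which 17 had values in wild type, 12 rising and 5 falling by limma (adjusted p under 0.05), against 62.9% of all listed genes rising. LZF1 (AT1G78600), a B-box zinc finger factor that promotes de-etiolation, had 39.03, 24.96 and 32.30 FPKM in green light and 13.80, 14.21 and 14.06 FPKM in the dark. Its change of 1.14 was 0.28 after the scaling. Of 16 B-box, GATA and GLK factors with values, 14 passed as rising and 2 as falling, against 62.9% of all listed genes rising, and 13 of the rising ones had rows for both genotypes and a change of at least 1.

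Among clock genes, PRR5 (AT5G24470), a pseudo-response regulator that represses morning-phased genes, had 23.01, 19.02 and 22.42 FPKM in green light, against 6.26, 6.50 and 5.34 FPKM in the dark. The groups lay well apart, with a change of 1.68. All 14 clock genes with values passed as rising, against 62.9% of all listed genes, falling ones included. Of the 14, 11 were listed for both genotypes with a change of at least 1, and PRR5 was the only one among the 116. The locus AT2G46670, annotated as a CCT motif protein, matches PRR9 at 99.5% identity over 99.7% of its length. It had 1.77, 3.56 and 0.00 FPKM in green light and 0.00, 0.22 and 0.20 FPKM in the dark, so green replicate 3 was listed at 0, and it did not pass an adjusted p of 0.05. PRR9 itself had 79.22, 65.72 and 77.41 FPKM in green light and 2.34, 1.60 and 1.83 FPKM in the dark. Reads of these loci cannot be told apart with the information given.

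The stretch before PRR5 (chr5:8358547-8358746, minus strand) is shown for its evening element, AAAATATCT, the motif bound by morning-phased MYB factors of the clock. The element lies on the reverse strand, 187 bases before the gene start, and its complement is in capitals.
PRR5: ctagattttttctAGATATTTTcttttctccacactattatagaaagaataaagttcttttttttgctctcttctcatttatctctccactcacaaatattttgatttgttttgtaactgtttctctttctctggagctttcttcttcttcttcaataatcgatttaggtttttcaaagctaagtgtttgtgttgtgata

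The 14 genes of cold, dehydration and abscisic acid form the largest named group. CBF1 and CBF2 encode AP2 factors that bind the CRT/DRE motif and switch on cold-responsive genes. CBF2 had 13.49, 10.73 and 8.72 FPKM in green light, against 2.31, 2.0 and 1.59 FPKM in the dark, a change of 2.01. CBF1 had 2.76, 2.08 and 1.87 FPKM in green light and 0.39, 0.91 and 0.51 FPKM in the dark, a change of 1.01 at much lower levels. In both, green replicate 1 was the highest and no green library overlapped the dark ones.

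The CBF genes lie in tandem on the minus strand of chromosome 4 (CBF2 at chr4:13015250-13016235 and CBF1 at chr4:13021780-13022996, TAIR10.1). DREB1A (CBF3), the other gene of the tandem, was listed for both genotypes, with 3.36, 3.14 and 2.79 FPKM in green light and 0.55, 0.15 and 0.05 FPKM in the dark. LTI78 (AT5G52310, also known as RD29A), a dehydration and cold marker, had 99.68, 73.11 and 106.41 FPKM in green light and 17.63, 21.64 and 22.09 FPKM in the dark. Its change was 2.13, the largest of the group. ERD10, a dehydrin, averaged 320 ± 58.8 FPKM in green light and 149 ± 15.6 FPKM in the dark (SD, n = 3 each), a change of 1.1.

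The stretch before LTI78 (chr5:21240467-21240716, plus strand) is shown because it holds the letters CCGAC, the core of the CRT/DRE that CBF proteins bind, 3 times, in capitals. Of the 14 genes of the group, 3 had these letters in the window searched (21.4%), LTI78 among them, against 15.1% of all listed genes with an entry.
LTI78: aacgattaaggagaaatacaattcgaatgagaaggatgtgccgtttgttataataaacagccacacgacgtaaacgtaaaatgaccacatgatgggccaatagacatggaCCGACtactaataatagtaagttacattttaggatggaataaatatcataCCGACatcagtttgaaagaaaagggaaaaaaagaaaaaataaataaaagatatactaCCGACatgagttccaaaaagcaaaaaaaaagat

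P5CS1, which catalyses the rate-limiting step of proline synthesis, had 32.91, 26.91 and 37.21 FPKM in green light and 9.35, 7.28 and 7.74 FPKM in the dark, a change of 1.87. ABF3, a bZIP factor of the abscisic acid response, had 350.56, 296.15 and 353.96 FPKM in green light and 153.98, 128.97 and 155.12 FPKM in the dark, a change of 1.19. RD26, a NAC factor induced by dehydration, averaged 29.8 ± 3.01 FPKM in green light and 10.1 ± 0.866 FPKM in the dark. All 3 genes had non-overlapping groups, and green replicate 2 was their lowest green library.

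Other regulators of the group were RAP2.6 (change 1.68) and ERF53 (1.63), both AP2/ERF factors, MYB96 (1.14), a MYB factor of the drought response and cuticular wax synthesis, and MYBR1 (1.08), known as MYB44. AFP1 (1.06) is an ABI5-binding protein that dampens abscisic acid signalling, FBS1 (1.01) an F-box protein induced by stress, and AT2G23110 (1.06) a late embryogenesis abundant protein. In these 7 genes too, all green libraries were above all dark libraries. MYBR1 shares 791 bases with CYP81G1 on the opposite strand.

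Of 18 cold and dehydration genes sought, 9 had values, and all 9 passed as rising, against 62.9% of all listed genes, falling ones included. Having a value means being in tables whose filter is unknown. CBF1, CBF2, LTI78 and ERD10 are among the 116, while GolS3, DREB1A, KIN1 and KIN2 were listed for both genotypes. Of 36 abscisic acid genes, 4 had values and passed as rising, against the same share, with ABF3 the only one at a change of at least 1. After scaling on the median gene, LTI78 (1.26), CBF2 (1.3) and P5CS1 (1.03) kept a change of at least 1, and the other 11 lay between 0.18 and 0.88. Without green replicate 1, MYBR1, ERD10, FBS1 and CBF1 dropped below a change of 1, and without dark replicate 1 so did AFP1, AT2G23110, FBS1 and CBF1.

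**Figure D3:**
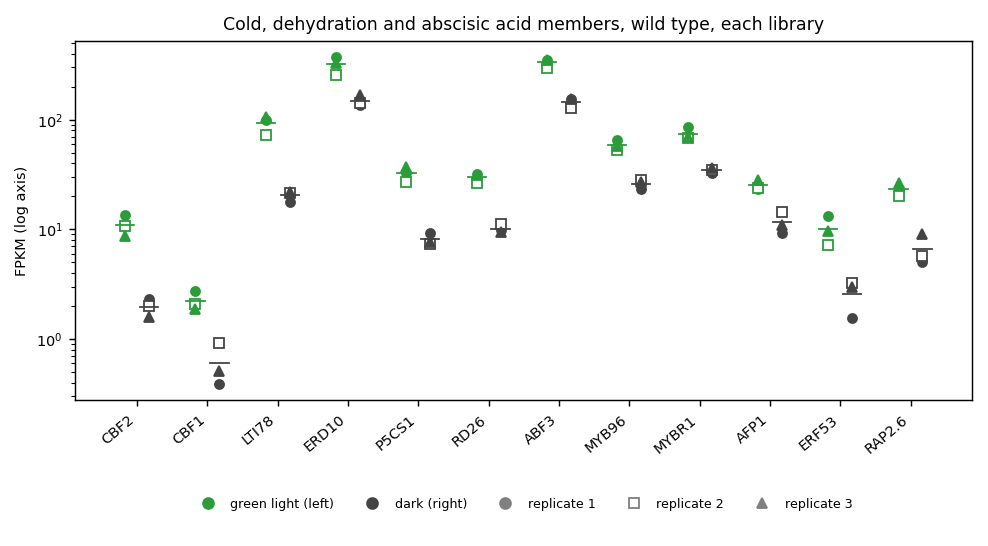
FPKM on a log axis of 12 of the 14 cold, dehydration and abscisic acid genes in each wild-type library, green light left of dark for each gene, with a marker shape per replicate number and short lines at group means. No green value overlaps a dark value of the same gene, and levels span from CBF1, at 1.87 to 2.76 FPKM in green light, to ABF3, at 296.15 to 353.96 FPKM.

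Among the 7 other transcription factors, ABS2 (AT2G36080), a B3-domain factor, was the most abundant and the most changed. It had 103.99, 94.65 and 109.22 FPKM in green light and 37.79, 28.61 and 30.72 FPKM in the dark, a change of 1.63. MYB61, a MYB factor that acts in stomatal aperture and secondary walls, averaged 19.6 ± 4.3 FPKM in green light and 7.65 ± 0.991 FPKM in the dark, a change of 1.25. LEP (LEAFY PETIOLE) and AT4G16750, AT2G44940 and AT5G52020 carry the AP2 DNA-binding domain, and NF-YA10 is a subunit of the CCAAT-binding complex. Their changes lay between 1.01 and 1.3. Green replicate 2 was the lowest green library in all 7 of these factors, and no green library overlapped the dark ones. None of them kept a change of at least 1 after scaling on the median gene.

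The 5 heat shock genes were 4 small heat shock proteins, which hold unfolding proteins in a soluble state, and the heat shock factor HSFB2B (AT4G11660), a class B factor that represses transcription. AT1G07400, annotated as an HSP20-like chaperone, had 11.04, 10.51 and 10.18 FPKM in green light, against 2.39, 2.93 and 2.53 FPKM in the dark. HSP17.6A had 1098.10, 1069.62 and 868.54 FPKM in green light and 506.33, 528.43 and 470.61 FPKM in the dark. AT1G07400 thus showed the largest change of the group (1.68) at low levels, and HSP17.6A, the most abundant, lay at the threshold with 1.01. AT1G52560, a further HSP20-like protein, had a change of 1.15.

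HSP17.4 had 434.87, 370.13 and 325.48 FPKM in green light and 182.53, 181.74 and 155.85 FPKM in the dark, a change of 1.12. The non-coding locus AT3G07365 lies wholly inside it on the opposite strand, over 453 bases, and is among the 116 as well. AT3G07365 had 941.49, 817.65 and 746.02 FPKM in green light and 356.15, 429.08 and 333.07 FPKM in the dark, a change of 1.16. The order of the green libraries was the same in both. HSFB2B averaged 16.5 ± 1.66 FPKM in green light and 6.15 ± 0.306 FPKM in the dark. AT4G05910, inside it on the opposite strand over 352 bases, averaged 31.4 ± 9.29 FPKM in green light and 4.69 ± 2.91 FPKM in the dark. The sources used here do not say whether counting used strand, so reads of such pairs cannot be told apart.

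The stretch before HSP17.4 (chr3:16984868-16985117, minus strand) is shown because it was the only one of the 106 promoters searched with the heat shock element, searched as GAA, TTC and GAA blocks each spaced by 2 free bases. It is present at 2 places, starting 99 and 18 bases before the gene start and printed in capitals.
HSP17.4: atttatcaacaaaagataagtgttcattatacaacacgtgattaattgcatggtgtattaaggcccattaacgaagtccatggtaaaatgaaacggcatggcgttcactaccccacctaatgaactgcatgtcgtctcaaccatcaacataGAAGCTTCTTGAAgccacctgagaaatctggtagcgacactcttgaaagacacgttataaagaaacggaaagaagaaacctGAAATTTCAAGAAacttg

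Of 34 heat shock and chaperone genes sought, 16 had values and all passed as rising, against 62.9% of all listed genes, falling ones included. HSP17.4, HSFB2B and HSP17.6A are among the 116, and 7, among them HSP101, HSP70 and the factor HSFA2, were listed for both genotypes with a change of at least 1. Of the 5 heat shock genes, 4 were highest in green replicate 1 and 4 were lowest in green replicate 3, against 40.3% and 24.9% of all listed genes. After scaling on the median gene their changes lay between 0.12 and 0.94.

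Transporters of nitrogen compounds and boron showed the widest spread among green libraries of the nuclear protein-coding groups, with a median SD of 0.53 on the log2 scale. DUR3, a urea transporter, had 91.77, 36.77 and 58.50 FPKM in green light, against 23.76, 22.09 and 18.78 FPKM in the dark. NRT2.2, a high-affinity nitrate transporter, had 3.26, 1.93 and 3.06 FPKM in green light and 0.34, 0.08 and 0.25 FPKM in the dark. NRT2.5, of the same family, had 2.69, 0.54 and 0.80 FPKM in green light and 0.16, 0.22 and 0.04 FPKM in the dark. The groups did not overlap in any of them, and green replicate 2 was the lowest green library.

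The boron channel gene NIP6;1 had 8.65, 8.30 and 14.57 FPKM in green light and 4.37, 4.82 and 4.51 FPKM in the dark. Its change of 1.05 dropped below 1 without green replicate 3, as did that of NRT2.5 (1.04) without green replicate 1. NRT2:1, the neighbour of NRT2.2 in the same family, was also listed for wild type only and fell just under the threshold, with a change of 0.99.

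Among the 10 genes of growth, peptide signals and the cell wall, AT5G62360, annotated in the invertase and pectin methylesterase inhibitor family, had the largest change (1.82). It had 6.90, 5.33 and 6.01 FPKM in green light and 0.97, 0.74 and 1.29 FPKM in the dark. RGF9, of the root meristem growth factor peptides, had 34.80, 31.99 and 44.78 FPKM in green light and 6.88, 10.47 and 16.11 FPKM in the dark, a change of 1.65. Its neighbour AT5G64780, 2240 bases away on the same strand of chromosome 5, is also among the 116, at 18.5 ± 2.11 FPKM in green light and 8.49 ± 1.54 FPKM in the dark. AHP1, a phosphotransfer protein of cytokinin signalling, had 14.91, 7.86 and 15.02 FPKM in green light and 3.32, 3.15 and 4.42 FPKM in the dark.

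EXPA2, an expansin that loosens walls, had 3.92, 1.4 and 2.79 FPKM in green light and 0.81, 0.08 and 0.32 FPKM in the dark. It was the only gene of the 116 on a list of wall expansion genes, of which 8 had values, 3 passing as rising and 5 as falling, against 62.9% of all listed genes rising. The others were the extensin-like AT4G08380 (1.48), the glycosyl hydrolase GH9B18 (1.46), the cutinase CDEF1 (1.11), the fasciclin-like arabinogalactan protein FLA15 (1.11), AT5G57770 (1.04) and the gibberellin-regulated GASA2 (1.01). In all 10 the green libraries lay above the dark ones, and green replicate 2 was the lowest green library in 8.

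GASA2 stood at the threshold with a wide spread, at 211.30, 221.95 and 146.79 FPKM in green light and 65.50, 124.21 and 97.52 FPKM in the dark. AT5G57770 averaged 19.3 ± 4.21 FPKM in green light and 8.86 ± 0.677 FPKM in the dark. It shares 404 bases with AT5G57760 on the opposite strand, which went the other way, at 14.7 ± 1.92 FPKM in green light and 113 ± 4.89 FPKM in the dark.

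The 10 organelle-encoded loci all carry ATCG or ATMG identifiers and had no entry in the annotation used, so they are given by identifier alone. All 17 organelle loci of the wild-type tables were absent from the BES1-RNAi tables, and the 10 are 4 of the 4 ATCG loci and 6 of the 13 ATMG loci. ATCG00920 had 732.99, 2581.68 and 1041.62 FPKM in green light, against 435.80, 352.11 and 571.42 FPKM in the dark. ATCG01210 had identical values in all 6 libraries. ATCG00950 had 816.90, 2908.71 and 993.29 FPKM in green light and 420.35, 502.65 and 637.38 FPKM in the dark. ATCG01180 differed from it only in dark replicate 1, at 421.88 FPKM. The 4 loci thus gave 2 distinct profiles.

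Green replicate 2 was the highest green library in all 10 organelle loci, and their median deviation there was 1.05 on the log2 scale above the mean of the 3 green libraries. ATMG01390 had 201.68, 465.28 and 235.82 FPKM in green light and 89.47, 130.29 and 175.90 FPKM in the dark. ATMG00030 had 36.91, 116.77 and 39.73 FPKM in green light and 18.90, 27.68 and 35.55 FPKM in the dark. ATMG00080 had 11.40, 36.80 and 6.73 FPKM in green light and 4.89, 6.48 and 9.38 FPKM in the dark. In the last of these, green replicate 3 lay within the dark range. The groups of ATMG00070 and ATMG01320 overlapped as well, and none of these 3 passed an adjusted p of 0.05. Without green replicate 2, none of the 10 organelle loci reached a change of 1.

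Nuclear loci that copy ribosomal RNA or mitochondrial sequence moved in the same libraries. AT3G06355 matches chr2:5604-6104 at 99.4% identity, a stretch that overlaps the ribosomal RNA locus AT2G01020. AT3G06355 shares 164 of its 502 bases with the ribosomal RNA locus AT3G41979. AT3G06355 had 7618.82, 16397.50 and 7043.91 FPKM in green light and 3823.28, 4536.74 and 5078.45 FPKM in the dark. AT3G41979 had 19425.7, 33636.1 and 52909.9 FPKM in green light, so green replicate 3 was its highest and the lowest of AT3G06355. AT2G01021, identical in sequence to AT3G06365, averaged 3552 ± 788 FPKM in green light and 1715 ± 516 FPKM in the dark. AT2G07687, annotated as cytochrome c oxidase subunit III, matches the mitochondrial genome at 100% identity over its whole length and averaged 4.91 ± 1.85 FPKM in green light and 1.92 ± 1.16 FPKM in the dark. Green replicate 2 was the highest green library in all 3, without it none reached a change of 1, and AT3G06355 did not pass an adjusted p of 0.05. Reads from the sequence they share cannot be told apart from those of the matching loci.

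The 11 nuclear non-coding RNAs had a median change of 1.73, the highest of any group, and a median SD of 0.83 on the log2 scale among green libraries. AT2G08770, annotated as a snoRNA of 226 bases inside AT2G35750 on the same strand, had 1.11, 60.98 and 39.26 FPKM in green light and 5.10, 0.00 and 1.42 FPKM in the dark. Its change of 3.45 was the second largest among the 116, yet green replicate 1 lay within the dark range and it did not pass an adjusted p of 0.05. AT2G09250, on the opposite strand of the response regulator gene RR3, had 26.38, 85.49 and 143.62 FPKM in green light and 29.07, 8.59 and 19.47 FPKM in the dark. It lies 721 bases from AT2G41312, which is also among the 116 with a change of 1.07. AT2G08060 overlapped between groups too, at 2.57, 13.43 and 4.85 FPKM in green light and 0.00, 3.07 and 1.11 FPKM in the dark.

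AT1G05837 and AT3G03495 were listed at 0 in every dark library. AT1G05837 had 4.09, 1.09 and 0.23 FPKM in green light, while AT3G03495 had 1.73, 1.47 and 1.81 FPKM in green light. These green values are low and differ in spread, with AT1G05837 spanning 17.8-fold and AT3G03495 almost level. AT4G06665, at 5.70, 0.54 and 2.01 FPKM in green light and 0.37, 0.00 and 0.00 FPKM in the dark, lies inside CT-BMY, a plastid beta-amylase gene, on the opposite strand. AT3G01205, at 2.59, 8.0 and 2.14 FPKM in green light and 0.95, 0.44 and 0.00 FPKM in the dark, shares 1108 of its 1171 bases with AT3G02910 on the opposite strand. The partners were listed for both genotypes and far higher in green light, CT-BMY with a change of 2.13 and AT3G02910 with 4.63. After scaling on the median gene, 8 of the 11 non-coding RNAs kept a change of at least 1. The added 1 makes this scaling move genes near 0 less, as AT1G05837 stood at 1.19 after it and 1.49 before, whereas the abundant HSP17.6A stood at 0.12 and 1.01. Of the 8, AT2G08770, AT2G09250 and AT2G08060 had overlapping groups, AT2G08770 did not pass an adjusted p of 0.05, and AT1G05837 and AT3G03495 were the genes listed at 0 in the dark.

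The 40 genes of metabolism or unknown role had a median change of 1.17. AT5G54165, annotated as an Avr9/Cf-9 rapidly elicited protein, had 20.23, 15.32 and 20.67 FPKM in green light and 2.26, 2.61 and 3.96 FPKM in the dark, a change of 2.32. AT1G64590, of the NAD(P)-binding Rossmann-fold family, averaged 7.29 ± 3.69 FPKM in green light and 0.743 ± 0.533 FPKM in the dark, a change of 2.25 with green replicate 2 the lowest green library. AT4G25433, a LysM domain protein, had 4.66, 2.08 and 3.86 FPKM in green light and 0.00, 0.00 and 0.37 FPKM in the dark. These 3 and AT1G03890, AT2G22942 and AT1G01310 were the 6 of this group that kept a change of at least 1 after scaling on the median gene.

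The most abundant of the 40 was AT1G14950, of the polyketide cyclase and lipid transport family, with 1740.40, 1582.12 and 1165.17 FPKM in green light and 638.79, 868.64 and 678.75 FPKM in the dark. AT5G04120, of the phosphoglycerate mutase family, had 816.81, 520.04 and 808.20 FPKM in green light and 230.44, 158.69 and 262.95 FPKM in the dark. AT1G20070, of unknown function, had 63.16, 49.65 and 49.41 FPKM in green light and 7.49, 26.39 and 9.35 FPKM in the dark. The groups did not overlap in these 3 genes, though dark replicate 2 of AT1G20070 stood well above the other dark libraries. The genes AT1G22160, AT1G78020 and AT4G39795 share the domain of unknown function DUF581, with changes of 1.60, 1.14 and 1.64.

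Others of the 40 were the carboxylesterase CXE5 (1.60), the vacuolar processing enzyme DELTA-VPE (1.4), the protein kinase SR1 (1.17), the inositol phosphatase 5PTase12 (1.11), the cytochrome P450 CYP705A19 (1.1) and the thioredoxin TH7 (1.1). AT5G37990 and AT5G38000, 6480 bases apart on chromosome 5, had changes of 1.13 and 1.04. AT3G09590, of the CAP family, was listed at 0 in all dark libraries and had 1.97, 0.51 and 0.65 FPKM in green light. AT2G22942, annotated as a growth factor, had 0.33, 3.86 and 2.94 FPKM in green light and 0.00, 0.00 and 0.31 FPKM in the dark, its lowest green value just above its highest dark one. AT5G40500 was the only one of the 40 whose groups overlapped, at 1.34, 2.91 and 4.63 FPKM in green light and 1.38, 0.68 and 0.74 FPKM in the dark. In 28 of the 40, green replicate 1 was the highest green library, and in 27 green replicate 2 was the lowest. Over the 1287 listed genes these held in 40.3% and 51.4%.

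The role groups thus differed in which green library stood out. Green replicate 2 was the highest green library in 7 of 8 antenna genes and 10 of 10 organelle loci, and the lowest in 7 of 7 other transcription factors, 4 of 4 transporters, 8 of 10 growth and wall genes and 10 of 14 cold and abscisic acid genes. Over all 116 genes it was the highest in 28.4% and the lowest in 54.3%, and over the 1287 listed genes in 26.0% and 51.4%. Most of the organelle sum came from the 4 ATCG loci, whose 2 distinct profiles each enter it 2 times. That sum and the antenna genes were thus high in the same library. Whether they share a source was not tested. In a whole seedling, a change in the share of a cell type and a change in RNA per cell cannot be told apart. Of 16 root markers and 19 seed markers sought, 3 and 2 had values in wild type, with median changes of 0.62 and 0.90, and none is among the 116.

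**Figure D4:**
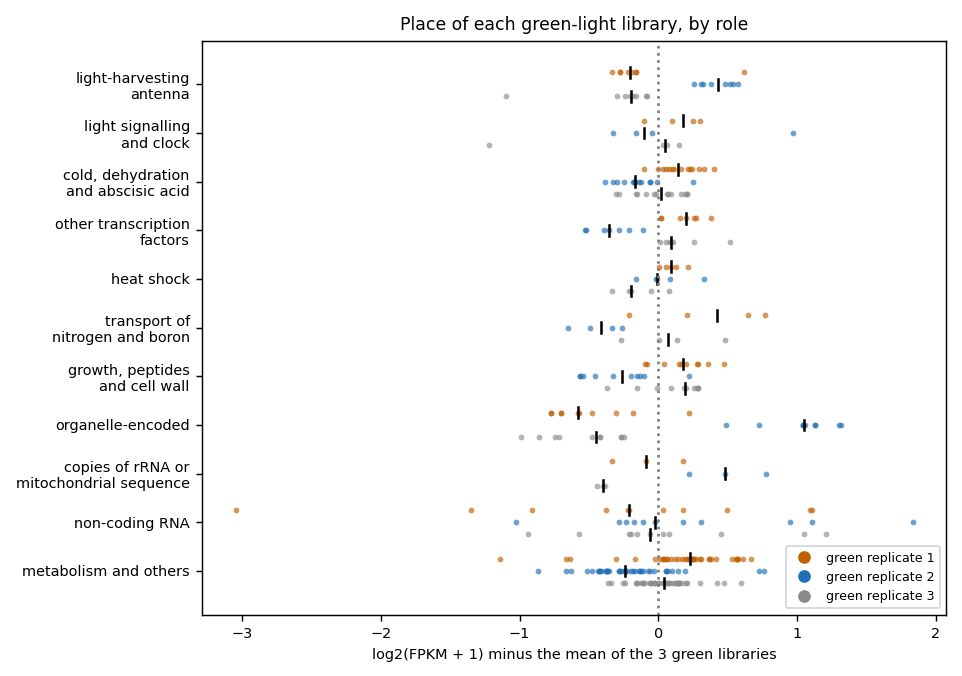
Each point is 1 gene in 1 green library, placed by log2(FPKM + 1) minus the mean of its 3 green libraries, with the role groups down the page, colours for the libraries and black bars at the medians. Green replicate 2 lies to the right in antenna and organelle genes, with medians of 0.43 and 1.05, and to the left in other transcription factors and transporters, with medians of -0.36 and -0.42.

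Set beside the 357 genes with a change of at least 1 that were listed for both genotypes, the 116 had the smaller median change, 1.28 against 1.57. Their median green level was 22.04 FPKM, against 29.7 FPKM, and their median dark level 8.31 FPKM, against 7.42 FPKM. The SD among green libraries had a median of 0.33 on the log2 scale in the 116 and 0.15 in the 357, and among dark libraries 0.19 and 0.15. Every green library was above every dark one in 92.2% of the 116 and 99.7% of the 357. Green replicate 2 was the lowest in 54.3% of the 116 and 44.0% of the 357. The sources used here do not state the filter behind the tables, so these figures describe the lists and are not tests.

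The lists differed in kind of gene as well. Nuclear non-coding loci made up 12 of the 116 (10.3%) and 12 of the 357 (3.36%), and organelle loci 10 of the 116 (8.62%) and 0 of the 357. Median gene length in the annotation was 1314 bases in the 106 genes with an entry and 1976 bases in the 357. Of the 106, 28 lie on chromosome 1, 17 on chromosome 2, 17 on chromosome 3, 16 on chromosome 4 and 28 on chromosome 5.

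Scaling moved every group. On equal sums of listed nuclear protein-coding genes, 49 of the 116 kept a change of at least 1, with a median of 0.83. This held for 258 of the 1287 listed genes, falling ones included, and for 209 of the 357. On an equal median gene, 22 of the 116 did, against 164 of the 1287 and 142 of the 357. In that scaling 54 of the 116 kept non-overlapping groups and 50 passed an adjusted p of 0.05 (limma). For these last 2 counts no share over all listed genes is given. The 22 hold 2 antenna genes, CRY3, LTI78, CBF2, P5CS1, NRT2.2, AT5G62360, 8 non-coding RNAs and 6 of metabolism or unknown role. The added 1 makes the shift smaller for protein-coding genes near 0 in the dark as well, to differing degrees. Dark means were 0.22 FPKM in NRT2.2, 0.12 in AT4G25433, 0.10 in AT2G22942, 0.06 in AT1G01310 and 0.74 in AT1G64590.

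**Figure D5:**
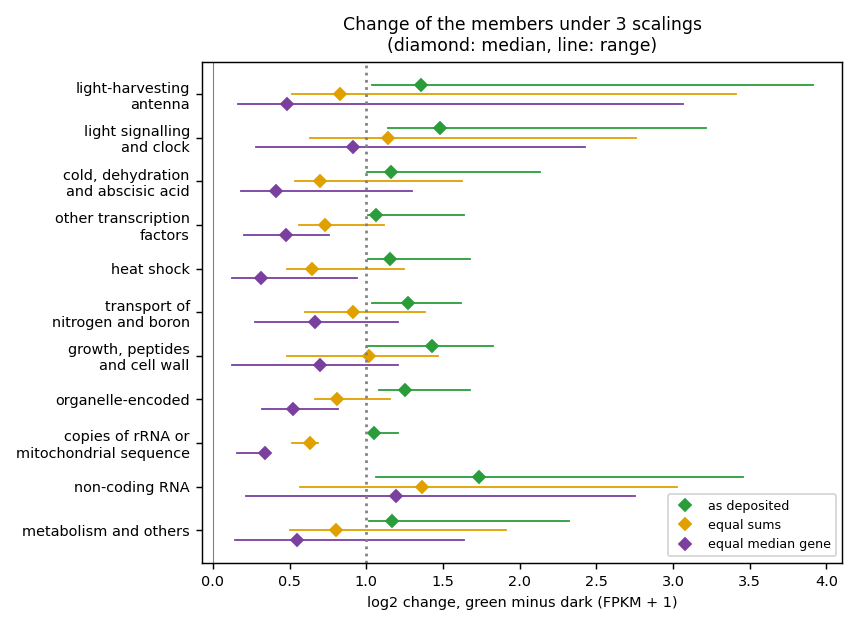
Median (diamond) and range (line) of the change on the log2(FPKM + 1) scale, green minus dark, for each role group with values as deposited, scaled to equal sums of listed nuclear protein-coding genes, and scaled to an equal median listed gene. All groups move left under both scalings, and non-coding RNA has a median of 1.19 on an equal median gene, where several of its genes are near 0 in the dark and the added 1 keeps the shift small.

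At the threshold, the 4 genes just inside were HSP17.6A (1.01), LEP (1.01), FBS1 (1.01) and GASA2 (1.01). The 4 just outside were AT3G16800, a protein phosphatase 2C (1.00, under the threshold before rounding), AT2G16005, of the MD-2-related lipid recognition family (1.00, likewise), HSP23.6-MITO, a mitochondrial small heat shock protein (0.99), and NRT2:1 (0.99). HSP23.6-MITO had 32.25, 35.94 and 31.16 FPKM in green light and 14.83, 17.72 and 15.83 FPKM in the dark, with no overlap. Leaving out green replicate 2 kept 93 of the 116, lost 23 and brought in 40 others. Leaving out green replicate 1 kept 89, lost 27 and brought in 12.

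Promoters of the 106 genes with a nuclear entry were searched on both strands, from 250 bases before to 50 bases after the gene start. The G-box CACGTG was in 16.0% of them, against 17.1% of the 357 genes listed for both genotypes, 13.4% of all listed genes with an entry, 7.68% of nuclear protein-coding genes and 6.46% of all 37897 nuclear genes. Every G-box is also an E-box, CANNTG, which was in 69.8% of the 106 and 62.9% of all nuclear genes. The E-box was in 67.1% of all listed genes with an entry and 67.5% of the 357. The evening element AAAATATCT was in 5.66% and 2.49%, CCGAC in 17.9% and 15.3%, GATAAG in 16.0% and 15.1%, and TATAAA in 53.8% and 48.8%. Over all listed genes with an entry these shares were 4.25% for AAAATATCT, 15.1% for CCGAC, 16.8% for GATAAG and 52.7% for TATAAA. In the bases before the gene start alone, TATAAA was in 44.3% of the 106 and 44.6% of all nuclear genes. CGTGTG and CGTGCG, forms of the element bound by factors of the BES1 family, were in 6.6% and 1.89% of the 106. They were in 6.19% and 1.75% of all nuclear genes. Over all listed genes with an entry these shares were 8.43% and 1.81%, and in the 357 they were 11.2% and 0.84%. The site II motif TGGGCC was in 9.43% of the 106, 9.92% of all listed genes with an entry, 9.24% of the 357 and 13.03% of all nuclear genes. For the telobox AAACCCTA the shares in the same order were 2.83%, 1.81%, 1.68% and 6.17%. A match is not a binding site, and no match says only that the letters are not in this window.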

How the data were processed

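Arabidopsis seedlings were profiled by RNA-seq in 12 libraries, 3 per group, and the 6 wild-type libraries were used for the values here. Per the labels' protocols, RNAiso Plus served for total RNA and an Illumina TruSeq kit for the libraries. The authors deposited FPKM per gene and library to 2 decimals. Trimmomatic 0.36, HISAT2 2.2.1.0, Cufflinks, TopHat, Bowtie2, DESeq 1.18.0 and build TAIR10 are named in the submitters' processing notes, without role or order. The sources used here do not state the strand setting, the treatment of reads with several matches or the filter behind the tables. FPKM is relative to the library total, so an abundant RNA whose share changes shifts every other value. Depth is unknown, and no counting interval is given. No pair of libraries of a group had more than 2.10% equal values, and each was counted as a sample.

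Values were analysed as log2(FPKM + 1), where the added 1 makes changes of weakly expressed genes look smaller. The light difference was fitted over all 1287 listed genes with limma 3.58.1 (R 4.3.3, intensity trend, two-sided, Benjamini-Hochberg adjustment) for background only, since the genes were chosen on it. Its p-values reflect library-to-library spread alone, which may be technical. The genes and gene lists were chosen with earlier results of these data known, and role groups were assigned from annotation and general knowledge after the genes were seen. Genes named include the 15 with the largest change, the 10 with the highest green mean, the 10 with the widest ratio between green libraries, up to 6 per list, those at the threshold, loci with identical values and neighbouring pairs. Others were named by role after their values were seen. A mean of at least 1 FPKM over the 6 libraries was met by 110 of the 116.

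Names, coordinates and promoters came from RefSeq TAIR10.1, which held 106 of the 116. Near-identical copies were sought with BLAST 2.17.0 (at least 95% identity over 50% of the gene) and found for 6. Alternatives were other pseudocounts, scalings, thresholds and averages, a filter on low values, identical loci counted once, no intensity trend, a block by replicate number, each library left out, and promoters cut at the gene start.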

Additional observations from a re-analysis of the deposited data

How the results depend on the processing

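The number of genes meeting the rule was 116 and depended most on the pseudocount, the scaling and the threshold: 195 with a pseudocount of 0.1, 22 on an equal median gene, 49 on equal sums and 39 at a threshold of 1.5. The median change was 1.28, and it was 0.54 on an equal median gene and 0.83 on equal sums. The 107 genes with non-overlapping groups became 54 on an equal median gene, and the 110 past an adjusted p of 0.05 became 50. The shares of 62.2% and 62.9% over all listed genes hold for values as deposited, and none is given for any other setting. These scalings shift all listed genes down, and whether the shift removes an error or part of the response was not tested. Leaving out 1 library at a time gave 101 to 133 genes, median changes of 1.23 to 1.37, 107 to 111 non-overlapping genes and 102 to 110 past the threshold. The genes differed more than these counts: without green replicate 2, all 10 organelle loci and the 3 copies of ribosomal RNA or mitochondrial sequence were lost, as were LHCA4 and LHCB2.3, which were also lost without dark replicate 3. Other settings gave 152 genes (pseudocount 0.5), 110 (mean of at least 1 FPKM), 106 (mean of log2 values, 105 of them shared) and 115 (identical loci counted once). Role groups that kept genes on an equal median gene were non-coding RNA (8 of 11), antenna (2 of 8), cold and abscisic acid (3 of 14), light signalling and clock (1 of 4), transporters (1 of 4), growth and wall (1 of 10) and metabolism and others (6 of 40). Same-numbered green and dark libraries correlated in their deviations by -0.08, 0.19 and 0.23, where green replicates 2 and 3 correlated best with their own number and green replicate 1 with dark replicate 2. The labels give the numbers no meaning, and not every pair exceeded 0.1, so the libraries were not treated as paired. With the replicate number as a block, 113 of the 116 passed an adjusted p of 0.05. Depth is unknown, which limits low values most: 23 genes averaged under 5 FPKM in green light and 11 were listed at 0 in at least 1 library. Promoter shares before the gene start alone were 13.2% for the G-box and 3.77% for the evening element in the 106 genes, against 5.39% and 2.11% of all nuclear genes.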
